A study of Homo sapiens with 12 samples.

Results

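Introns shorter than 120 bases were examined in the splice junctions of 3 B-cell leukaemia lines that carried wild-type or mutant U1 RNA. A junction is a read gap that joins 2 exons, and the positions deposited for it are the last base of the exon on the left and the first base of the exon on the right. Members were the junctions with a strand, an end minus start under 120 and at least 20 reads summed over the 6 columns of the junction table. The members were thus chosen by intron length and by read depth. This rule found 4766 junctions of 170723 in the table, and of 91195 that had a strand and at least 20 reads. At any depth, 10550 junctions spanned so little. One short junction with at least 20 reads was left out because it had no strand. The rule used read counts of mutant and wild-type cells together, so a junction could pass through mutant reads alone.

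RNA came from JVM3, HG3 and MEC1, established human lines whose labels name chronic lymphocytic leukaemia, a disease of mature B lymphocytes. Every line was studied in 2 forms, one with wild-type U1 and one carrying U1 g.3A>C. Total RNA was extracted with Trizol and made into stranded libraries after depletion of ribosomal RNA. Each of the 6 groups held 2 technical replicates, and the junction table pooled them into 1 column a group, with 15535687 to 17915166 reads on stranded junctions. Mutant and wild-type cells were compared within each line, so the line was the unit of replication (n = 3 lines). The labels do not say how mutant U1 was brought into the cells or whether a line was 1 clone. B-cell genes stood high in all 12 libraries, with MS4A1 (CD20) at 708 to 1290 CPM (counts scaled to library size), while the T-cell genes CD3D, CD3E, CD3G and CD2 reached at most 0.472 CPM. Of the genes that mark chronic lymphocytic leukaemia, FCER2 (CD23) ran from 176 to 709 CPM, CD5 from 0.0796 to 42.5, ROR1 from 0.252 to 17.5 and LEF1 from 3.45 to 27.3.

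An intron is recognised when the 5′ end of U1 RNA pairs with the 5′ splice site, or donor, which spans the last bases of an exon and the first bases of the intron. The third base of U1 faces the sixth base of the intron: an A there pairs with T in the DNA-sense sequence (U in RNA), and a C pairs with G. In very short introns the donor, the branch point and the acceptor lie close together, and the machinery is thought to recognise the intron itself as a unit rather than the exons around it.

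Donors were read from annotated transcripts that run through the intron unspliced, because the genome of the files' build was not in hand, and 2047 of the 4766 members had a readable donor. Every readable donor of a short intron used more or used less is printed except that of MINCR, with some of the donors that compete for the same acceptor, to show the base that faces the mutated position. Each line holds 10 exon bases and 20 intron bases, 5′ to 3′. Capitals mark the last 3 exon bases and the first 6 intron bases, so that the last capital is the sixth base of the intron.
PTCD2 short intron, used more: ttgttctAAGGCAAGGattatagagtcaga
PTCD2 competing donor: aattcagGAGGTATGAaaccctattttacc
ACAD10 short intron, used more: ccagactGAGGTGAGGaataaacacatcca
PIEZO1 short intron, used more: ccatactGAGGTCAGGctggggcttttctg
PIEZO1 competing donor: gacagagAAGGTGCCTgggcccagggcggg
DDX39A short intron, used more: cctggcaCAGGTTGGGaggggtctgggtct
DDX39A competing donor: gagcagcTGGGTGAGTcctctgcccttgca
PPIG short intron, used more: cacatctTTGGTAAGGacaggatgtttata
CREBBP short intron, used more: agagaacAAGGTGTGGacgcacacacagac
RNF167 short intron, used more: ggctttgTAGGTGAGGggaaatttttgcaa
DMAP1 short intron, used more: ttgctatAGGGTAGGGtagatcagctccct
MEN1 short intron, used more: tcattttGCAGTGAGGaccccacctactcc
MEN1 competing donor: tcatccaGGAGTGAGGatccccctactagg
WBP1 short intron, used more: gtgggatTGTGTATGTgcatgcaggaggtg
RPL4 short intron, used more: tcaggggCTGGTTTCTtggtagctgctgcc
BRD1 second short intron, used more: atcgaaaAGTGTAAGCcccccaaagtctgc
IL17RB short intron, used more: aacactaGAGGTATGGgcgaagccagaaag
IL17RB competing donor: tacggtgCAGGTAAAGttcagtgagctgct
FDPS short intron, used less: aggaaccTCGGTGAGTgtggttggggtgag
FDPS competing donor: ctgggaaCAGGTGAGAgaggatgtgtgctg
OSGEP short intron, used less: cccatatACGGTATATattaacaaaatttg
OSGEP competing donor: tggcaaaGCGGTAAGGggacataaggtgga
HNRNPA2B1 short intron, used less: gaggaaaAAGGTACTCtgccagcaggtcac
HNRNPA2B1 competing donor: cgcgatgGAGGTAACGggtttgaaatcaat
Of the short introns used more, those of WBP1 and RPL4 end the capitals with T, that of BRD1 with C and all others printed with G. The RPL4 junction lies on the strand opposite the gene. The IL17RB and MEN1 pairs carry G on both donors. In OSGEP and HNRNPA2B1 it is the competing donor that carries G. Of the competing donors read but not printed, those of ARHGAP30 and MRPL32, whose share rose, carry G, and so does that of TOM1, whose share fell. Those of ALKBH6, RPL4 and DMAP1 carry T and those of WBP1, DPY30 and KIF22 carry C.

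Most short introns were ordinary ones. Of the 4766, 3453 (72.5%) were introns of GENCODE release 29, to whose genes the junctions were matched by the spacing of their introns, and these took 95.6% of the members' 8878013 reads. A further 408 joined an annotated donor to a new acceptor, 207 joined a new donor to an annotated acceptor, and 8 paired annotated ends in a new way. Another 405 lay wholly inside an annotated exon, 239 on the strand of the gene and 166 on the other strand. The remaining 234 belonged to none of these classes, and 51 could not be placed. The annotated short introns were most often 85 bases long (111 junctions), only 33 of them were under 70 bases and the shortest had 49. Members were spread over 2291 host gene symbols, of which SBF1 held 21, FLNA, the actin-binding filamin A, 17 and USP19, a deubiquitinase, 15.

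**Figure D1:**
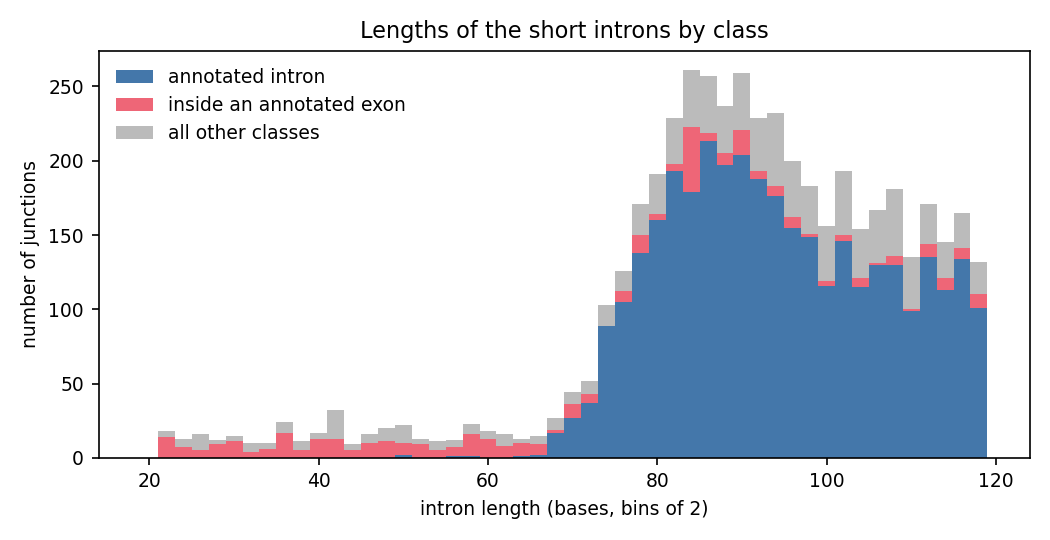
Number of short-intron junctions (y axis) by intron length in bases (x axis, bins of 2), stacked by class. Annotated introns pile up around the most frequent length of 85 bases, while the junctions inside exons reach down to the shortest lengths.

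Taken as a class, short introns carried the same share of reads under both forms of U1 within the spread between lines. In JVM3 they took 8.84% of the column's reads in mutant cells (95% Wilson interval 8.827 to 8.853, for counting error only) and 8.819% in wild-type cells. In HG3 the shares were 9.55% and 9.381%, and in MEC1 8.425% and 8.636%. The mean was 8.94% ± 0.57 in mutant and 8.95% ± 0.39 in wild-type cells (SD, n = 3 lines). The share was higher in mutant cells in JVM3 and HG3 and lower in MEC1, and the mean difference was -0.007 points ± 0.192 (exact 2-sided sign-flip permutation test, p = 1.0; 3 pairs cannot give a p under 0.25). The lines differed in direction, and a shift smaller than this spread was not detectable.

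The deepest short introns showed the same in single genes. EEF1A1, the translation elongation factor 1 alpha, held the 3 deepest. The first of them (chr6:74227987-74228077, 89 bases) had 99794 mutant and 88797 wild-type reads in JVM3, 150015 and 137364 in HG3, and 78696 and 89247 in MEC1. It took 99.5% ± 0.9 of the reads at its acceptor in mutant and 98.7% ± 1.3 in wild-type cells (SD, n = 3 lines; adjusted p = 1.0 by edgeR's diffSpliceDGE). RPS18, a protein of the small ribosomal subunit, had 42933 mutant and 37693 wild-type reads in JVM3, 52155 and 49760 in HG3, and 38433 and 45069 in MEC1 on a sole intron of 81 bases (chr6:33243660-33243742). Its level differed by -0.10 on the log2 scale (SE 0.15, 3 lines, adjusted p = 0.711 by edgeR), and that of the ACTB intron of 95 bases (chr7:5567816-5567912), in the beta-actin gene, by -0.12 (SE 0.08, adjusted p = 0.593 by edgeR). In EEF1A1 and RPS18 the mutant level was above the wild-type level in HG3 and below it in MEC1. The share of the class moved in the same directions in these lines, and how much of its shift came from these introns was not tested.

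The use of a short intron was read as its share of all reads at the same acceptor. A competing junction was present for 1103 members, and the other 3663 were alone at their acceptor. Use was called changed at an adjusted p under 0.05 in edgeR's diffSpliceDGE over all 35857 junctions tested, together with a mean change of 5 points or more in 1 direction in each of the 3 lines. Thus 32 short introns were used more in mutant cells, 2.9% of those tested, beside a background of 2.0% over all junctions. A further 5 were used less, 0.453% beside a background of 0.784%. The test compares the log fold change of a junction with that of its acceptor as a whole, not the change in points. Mirrored changes at 1 acceptor can thus give unlike p-values. At the first BRD1 intron below, the gain of 29.7 points had an adjusted p of 5.49e-05 and the competitor's equal loss 0.432 (diffSpliceDGE). The numbers of gains and losses are therefore not to be weighed against each other. The 32 gains are a description, because reads of mutant cells helped junctions over the minimum: 14 of the 32 would have stayed under 20 reads had both forms given the wild-type count. In wild-type cells 22 of them took a mean of less than 5% of their acceptor's reads. New donors made up 16 of the 32 (of 199 tested) and annotated introns 12 (of 686 tested), and the 5 losses were all annotated introns. Without HG3 the test called 17 gains and 3 losses among 849 members tested, and without MEC1 16 and 2 among 814.

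**Figure D2:**
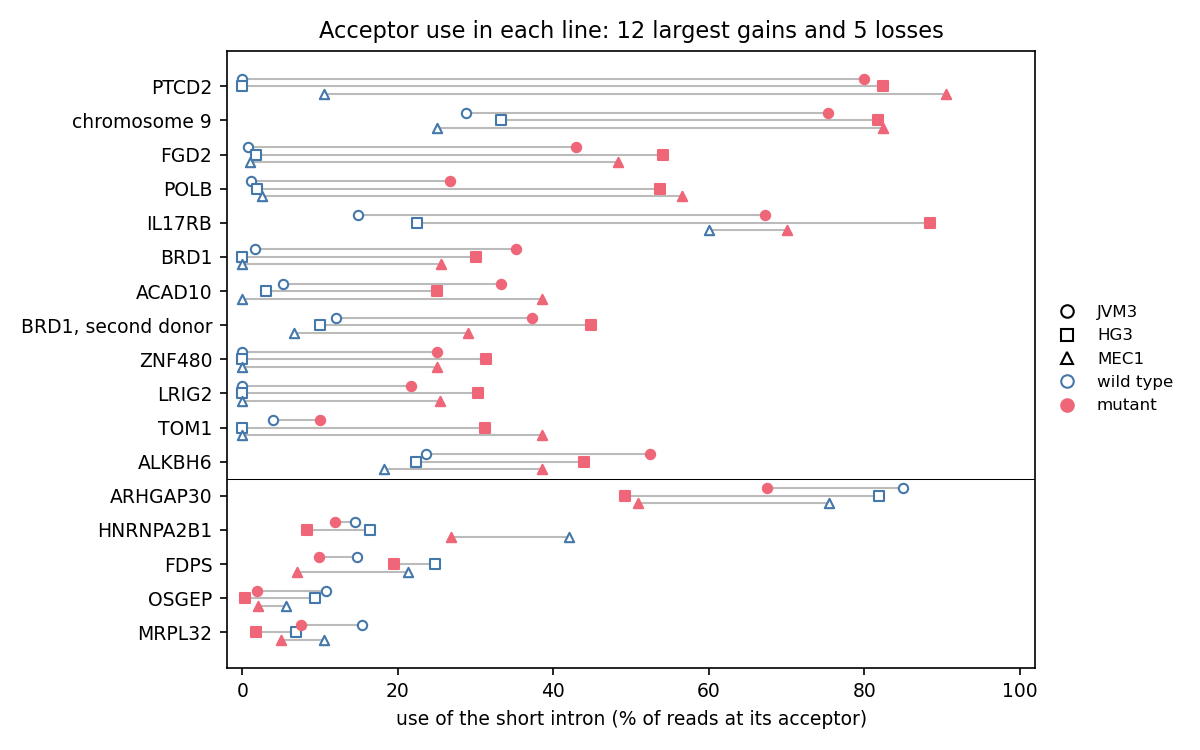
Share of the acceptor's reads taken by the short intron (x axis, %) for the 12 largest gains (above the line) and the 5 losses (below it). Each grey bar joins wild type (open) to mutant (filled) within 1 line, shown by its symbol; PTCD2 moves from 3.5% to 84.3% on average, and ARHGAP30 from 80.8% to 55.9%.

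PTCD2, a pentatricopeptide repeat protein of mitochondria, had the largest gain, from a new donor 76 bases before an annotated acceptor (chr5:71655354-71655431). Of the reads at that acceptor, 4 of 5 in JVM3, 14 of 17 in HG3 and 19 of 21 in MEC1 came from the short intron in mutant cells. In wild-type cells these were 0 of 9, 0 of 13 and 2 of 19. The gain was 80.8 points ± 1.4 (SD, n = 3 lines; adjusted p = 0.00192 by diffSpliceDGE) and nearly alike in the 3 lines, on few reads. The competing junction was an annotated intron of 780 bases whose donor, printed above with an A as its sixth intron base, lies 704 bases upstream. From that same upstream donor, a junction to a new acceptor would close an exon of 107 bases in front of the short intron. That junction had 41 reads in mutant and 0 in wild-type columns.

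Further members gained use from a wild-type level near 0. FGD2, an activator of the small GTPase Cdc42, used its short intron (chr6:36995110-36995205, 94 bases, new donor) for 70 of 163 acceptor reads in mutant JVM3, 73 of 135 in HG3 and 85 of 176 in MEC1. The wild-type counts were 1 of 128, 3 of 170 and 3 of 322. The groups lay far apart, at 48.4% ± 5.6 and 1.2% ± 0.5 (SD, n = 3 lines; adjusted p = 6.57e-09 by diffSpliceDGE). POLB, the DNA polymerase of base excision repair, used an annotated intron of 92 bases (chr8:42218720-42218813) for 40 of 150, 36 of 67 and 64 of 113 reads in mutant JVM3, HG3 and MEC1. In wild-type cells the counts were 3 of 263, 4 of 212 and 7 of 275, so that JVM3 had the smallest gain of the lines. Its mean use was 45.7% ± 16.5 against 1.9% ± 0.7 (SD, n = 3 lines; adjusted p = 1.29e-07 by diffSpliceDGE).

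BRD1, a bromodomain protein of histone acetyltransferase complexes, gained use at 2 short introns, both from new donors. At the first (chr22:50171461-50171552, 90 bases) the mutant counts were 25 of 71 in JVM3, 9 of 30 in HG3 and 13 of 51 in MEC1. The wild-type counts were 1 of 61, 0 of 68 and 0 of 97, a change of 29.7 points ± 4.0 (SD, n = 3 lines; adjusted p = 5.49e-05 by diffSpliceDGE). At its second short intron (chr22:50181142-50181225, 82 bases) the counts were 42 of 113, 79 of 176 and 38 of 131 in mutant and 6 of 50, 4 of 40 and 5 of 75 in wild-type JVM3, HG3 and MEC1. Use there changed by 27.5 points ± 6.6 (SD, n = 3 lines; adjusted p = 0.00461 by diffSpliceDGE), and no line overlapped between the groups at either place. Beside these short introns, junctions that would close exons of 200 and 311 bases had 488 and 260 reads in mutant columns and 31 and 90 in wild-type columns. The BRD1 gene also rose, by 1.07 on the log2 scale (adjusted p = 0.0443 by edgeR).

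Several gains had no wild-type reads at all. ZNF480, a zinc finger gene, used a new donor (chr19:52803560-52803647, 86 bases) for 46 of 183, 27 of 86 and 20 of 80 reads in mutant JVM3, HG3 and MEC1. None of 354 wild-type reads did so, which allows a share of up to 0.847%, and its reads were at least 29.2-fold higher in mutant columns (against a floor of 3 reads over the group, for counting error only). LRIG2, a leucine-rich repeat membrane protein, had 10 of 46, 10 of 33 and 18 of 71 reads on its new donor (chr1:113641214-113641327, 112 bases) in mutant JVM3, HG3 and MEC1. In wild-type columns 0 of 132 reads allow up to 2.27%. CREBBP, a histone acetyltransferase, had 6 of 43, 9 of 43 and 7 of 51 mutant reads (chr16:3795355-3795441) and 0 of 116 in wild type, and HELQ, a DNA helicase, 7 of 45, 3 of 34 and 10 of 47 against 0 of 98 (chr4:84339359-84339455).

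TREML2 and POLR3E complete the 6 short introns with at least 3 reads in every mutant and 0 in every wild-type column (0.126% of members, beside a background of 0.114%). TREML2, a receptor of the TREM family, had 7, 11 and 27 mutant reads on a new acceptor (chr6:41162063-41162163) in JVM3, HG3 and MEC1. POLR3E, a subunit of RNA polymerase III, had 9 of 183, 4 of 156 and 8 of 149 on a new donor (chr16:22336969-22337082), too small a share for the bound of 5 points. The mirror pattern, reads in wild-type columns only, held 2 members (0.042%, beside a background of 0.0143%). One was HNRNPA3, an RNA-binding protein, with 9, 13 and 18 wild-type reads in JVM3, HG3 and MEC1 on a new acceptor (chr2:178080624-178080718). The other was EEF1A1P5, a near copy of EEF1A1 whose reads cannot be assigned with certainty, with 13, 6 and 7 on a junction inside an exon. Among deep short junctions, some column was empty in 44.4% at new acceptors and 41.7% inside exons, as described below. The zeros of TREML2, HNRNPA3 and EEF1A1P5 are to be read with that limit.

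Other gains started from a measurable wild-type level. IL17RB, a receptor chain for interleukin 25, used its short intron (chr3:53892637-53892746, 108 bases, new donor) for 234 of 348 reads in mutant and 26 of 174 in wild-type JVM3, and for 146 of 165 and 19 of 85 in HG3. In MEC1, where the acceptor was hardly read, the counts were 7 of 10 and 3 of 5. The mean gain was 42.8 points ± 29.2 (SD, n = 3 lines; adjusted p = 9.12e-05 by diffSpliceDGE), with the smallest gain in MEC1. At a place with no gene named (chr9:37407617-37407717), mutant cells stood at 79.8% ± 3.9 and wild-type cells at 29% ± 4.2 (SD, n = 3 lines; adjusted p = 0.04 by diffSpliceDGE). ALKBH6, of the AlkB family of dioxygenases, used an annotated intron of 91 bases (chr19:36504324-36504416) for 52 of 99, 40 of 91 and 40 of 104 reads in mutant JVM3, HG3 and MEC1. The wild-type counts were 21 of 89, 23 of 103 and 16 of 88, lower in each line.

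Smaller acceptors in ACAD10 and TOM1 close the 12 largest gains. ACAD10, of the acyl-CoA dehydrogenase family, joined annotated ends in a new pair (chr12:112186907-112186977, 69 bases), with 9 of 27, 3 of 12 and 5 of 13 reads in mutant and 3 of 58, 1 of 33 and 0 of 47 in wild-type JVM3, HG3 and MEC1. TOM1, a protein of endosomal sorting, used an annotated intron (chr22:35717840-35717952, 111 bases) for 8 of 80, 20 of 64 and 27 of 70 reads in mutant and 5 of 126, 0 of 158 and 0 of 70 in wild-type cells. JVM3 stood out in TOM1 with the smallest change. Without HG3 or without MEC1, TOM1 (adjusted p = 0.0845 and 0.0683 by diffSpliceDGE) and the place on chromosome 9 (0.134 and 0.0683) no longer passed. ALKBH6 did not pass without any 1 of the lines (0.0751 to 0.137, by diffSpliceDGE). ACAD10 could not be tested with any line left out, because too few reads remained. The same held for PTCD2 without MEC1 and for the place on chromosome 9 without JVM3.

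The other 20 gains ran from 7.9 points in KIF22, a kinesin of mitosis, to 23.0 points in DENND1A, an activator of Rab GTPases; they were named after their values were seen. DENND1A (chr9:126429358-126429455) had 80 of 388, 78 of 268 and 42 of 208 reads in mutant and 0 of 453, 1 of 480 and 2 of 234 in wild-type JVM3, HG3 and MEC1. TRIO (chr5:14498106-14498198), a guanine nucleotide exchange factor, had 135 of 692, 80 of 426 and 57 of 232 against 16 of 604, 10 of 352 and 5 of 195. Use in TRIO was 21.0% ± 3.2 in mutant and 2.7% ± 0.1 in wild-type cells (SD, n = 3 lines; adjusted p = 1.21e-07 by diffSpliceDGE). MEN1, the tumour suppressor menin, rose from 3.3% ± 3.3 to 25.7% ± 8.1 at an annotated intron of 117 bases (chr11:64573242-64573360). PIEZO1, a mechanically gated ion channel, rose from 3.4% ± 0.2 to 20.8% ± 2.4 (chr16:88783619-88783725). In PPIG, a cyclophilin of nuclear speckles, use rose from 1.7% ± 0.6 to 12% ± 0.6 (chr2:170488157-170488276). DDX39A, an RNA helicase of mRNA export, rose from 5.8% ± 1.5 to 16.7% ± 4.6 (chr19:14521146-14521233; each SD over 3 lines). The rest lay in MTMR4, MDN1, DNAJC13, WBP1, DPY30, RNF167, DMAP1, MPC1 and the long noncoding RNA MINCR, in CREBBP and HELQ above, on chromosome 19 at a place with no gene named, and in RPL4. The RPL4 junction (chr15:66791809-66791846, 36 bases) lay inside an exon on the strand opposite to the gene. MEN1, MDN1, DPY30 and KIF22 did not pass without MEC1 (adjusted p = 0.0612 to 0.11 by diffSpliceDGE), and MINCR, DNAJC13, RNF167 and MPC1 not without HG3 (0.0513 to 0.215). MTMR4 did not pass without JVM3 or MEC1 (0.0927 and 0.193), and RPL4, WBP1 and DMAP1 not without any 1 of the lines (0.082 to 0.398, by diffSpliceDGE). CREBBP, HELQ and the place on chromosome 19 could not be tested with any line left out, because too few reads remained. The same held for MINCR without MEC1 and for MTMR4 without HG3.

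Each of the 32 gains competed with a longer intron whose donor lay upstream, 33 to 9486 bases away (median 934). The length bound of the rule favours this layout, and the 5 losses had it too. For 19 of the 32, a junction from that upstream donor to an acceptor in front of the short intron would close an exon of 40 to 311 bases. These partner junctions, which the choice of members did not use directly, had 2047 reads in mutant and 456 in wild-type columns. Mutant reads outnumbered wild-type reads in each of the 19. The BRD1 partners alone gave 488 and 260 of the mutant reads, in a gene that rose, while that of WBP1 had 12 mutant and 10 wild-type reads. Whether the same transcripts carried both junctions was not tested, and partners of short introns not called were not counted. Among the new donors, 8 of 16 had such a partner.

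The 5 losses were all at annotated introns, and in 4 of them use fell by 6.2 to 8.7 points. ARHGAP30, a GTPase-activating protein, used its intron of 89 bases (chr1:161019124-161019214) for 399 of 591 reads in mutant and 374 of 440 in wild-type JVM3, for 245 of 498 and 290 of 354 in HG3, and for 222 of 436 and 244 of 323 in MEC1. Its use fell by 24.9 points ± 7.6 (SD, n = 3 lines; adjusted p = 0.0236 by diffSpliceDGE). Its competing junction, from a new donor 171 bases upstream with an intron of 260 bases, rose from 19.2% to 44.1% of the reads (adjusted p = 5.76e-05 by diffSpliceDGE). Without any 1 of the lines the ARHGAP30 loss did not pass (adjusted p = 0.0702 to 0.231 by diffSpliceDGE).

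HNRNPA2B1, an RNA-binding protein, lost use of the intron of 98 bases that follows its alternative 36-base exon (chr7:26237352-26237451). The mutant counts were 294 of 2481 in JVM3, 166 of 2007 in HG3 and 1057 of 3942 in MEC1, against 309 of 2131, 351 of 2135 and 1290 of 3069 in wild type. The groups overlap, since MEC1 used it most under both forms, but each line moved down, by 8.7 points ± 6.3 on average (SD, n = 3 lines; adjusted p = 0.0124 by diffSpliceDGE). A junction that enters the 36-base exon had 984 mutant and 1343 wild-type reads. Without HG3 or without MEC1 the HNRNPA2B1 loss did not pass (adjusted p = 0.187 and 0.0838 by diffSpliceDGE).

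FDPS, the farnesyl diphosphate synthase of the mevalonate pathway, had 110 of 1109, 96 of 492 and 66 of 933 reads on an intron of 77 bases in mutant JVM3, HG3 and MEC1 (chr1:155279756-155279834). In wild type the counts were 156 of 1052, 147 of 593 and 182 of 854, and the loss did not pass without MEC1 (adjusted p = 0.316 by diffSpliceDGE). OSGEP, a tRNA-modifying enzyme, kept 6 of 328, 1 of 294 and 13 of 656 reads on its intron of 90 bases (chr14:20916970-20917061), against 23 of 212, 22 of 237 and 22 of 390 in wild type. Here the upstream donor that carries G was 62 bases away. MRPL32, of the mitochondrial ribosome, had 50 of 664, 11 of 617 and 35 of 710 against 81 of 526, 37 of 533 and 64 of 612 (chr7:42976840-42976921).

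The sixth base of the intron, which the choice of members did not use, differed with the call. Among short introns used more, 11 of 14 readable donors (78.6%) had guanine there, 2 had thymine and 1 cytosine. Among those tested and not called, guanine stood in 178 of 544 (32.7%) and thymine in 186 (34.2%). None of the 3 readable donors used less had guanine. Longer introns gave 72.4% guanine among 228 readable donors used more and 22.7% among 10289 not called, so that short introns not called carried guanine more often than longer ones. These shares are a description: only 14 of the 32 donors could be read, all of them covered by an annotated transcript.

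**Figure D3:**
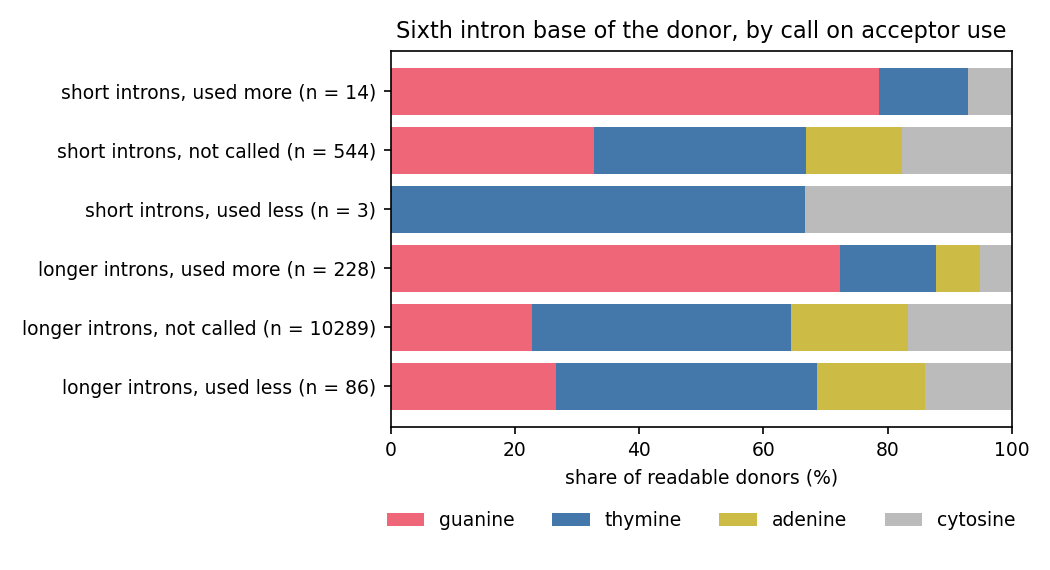
Share of readable donors (x axis, %) with each base at the sixth position of the intron, for short and longer introns by the call on acceptor use (y axis, with the number of readable donors). Guanine reaches 78.6% in short and 72.4% in longer introns used more.

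Over all readable short introns with a competitor, the median change in use was highest with guanine. The median change was 0.64 points for the 189 with guanine, -0.07 for 84 with adenine, -0.34 for 98 with cytosine and -0.98 for 190 with thymine. Guanine had a positive median in each line (0.77 in JVM3, 0.39 in HG3 and 0.80 in MEC1), and thymine a negative one (-0.16, -0.66 and -0.92). Adenine had 0.33, -0.28 and 0.0 and cytosine -0.36, 0.12 and -0.6 in these lines, so the order of the bases other than guanine was not the same in each. With guanine, 58 short introns rose and 31 fell in all 3 lines by sign alone, and with thymine 24 rose and 52 fell. Among annotated short introns the medians of the read level were close to 0 for every base, at 0.05 on the log2 scale for guanine and 0.01 for thymine. Of these introns 21 with guanine rose and 15 fell (of 385), and 8 with thymine rose and 26 fell (of 550). With adenine 8 rose and 4 fell (of 189), and with cytosine 3 rose and 7 fell (of 263).

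Read levels covered the members that have no competitor. A level was called changed at an adjusted p under 0.05 by edgeR over 91195 junctions, with the same sign in each line. Among the 4766 members 113 rose (2.37%, beside a background of 2.9%) and 132 fell (2.77%, beside a background of 3.26%). The median log2 change was 0.02 over members and -0.01 over all junctions tested. In bulk RNA, fewer transcripts per cell and fewer cells that express the gene cannot be told apart. Of the 3663 members alone at their acceptor, 64 rose and 97 fell, and 57 and 91 of these were annotated introns. Without HG3 the counts over all members dropped to 56 and 71.

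The largest rises alone at an acceptor, beside TREML2, rested on few reads. PPP2R2D, a regulatory subunit of phosphatase 2A, had 12 mutant and 0 wild-type reads in JVM3, 18 and 0 in HG3, and 55 and 5 in MEC1 on a junction of 113 bases inside an exon (chr10:133769477-133769591). WIPI2, a protein of autophagy, had 8 and 1, 11 and 0, and 15 and 2 on an annotated intron (chr7:5256290-5256380). ZGPAT, a transcriptional repressor, had 11 and 0, 20 and 0, and 12 and 4 (chr20:62366729-62366843). This junction of 113 bases also lay inside an exon, and its intron began with GG. The zeros of PPP2R2D and ZGPAT are to be read with the limit on empty columns inside exons described below. In all 3 genes mutant counts were above wild-type counts in every line, while the gene levels differed by 0.16, -0.05 and 0.51 on the log2 scale without passing (adjusted p = 0.366, 0.772 and 0.0513 by edgeR). WIPI2 did not pass without HG3 (adjusted p = 0.11), and ZGPAT not without JVM3 (0.058) or HG3 (0.171, all by edgeR). DESeq2 called neither (adjusted p = 0.212 and 0.127).

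The falls followed the gene more often. ACSF2, an acyl-CoA synthetase of mitochondria, had 16 mutant and 33 wild-type reads in JVM3, 23 and 78 in HG3, and 36 and 92 in MEC1 on an annotated intron (chr17:48539663-48539781). This junction fell by 1.52 on the log2 scale (SE 0.14, 3 lines, adjusted p = 0.000239 by edgeR), and the gene fell by 1.04 (adjusted p = 0.00441 by edgeR). DNAH1, a dynein heavy chain, had 4 and 16, 2 and 15, and 6 and 11 reads (chr3:52404035-52404126), and its gene fell by 0.58 (adjusted p = 0.022 by edgeR). The DNAH1 junction did not pass without JVM3 or HG3 (adjusted p = 0.185 and 0.251 by edgeR) or by DESeq2 (adjusted p = 0.436). Of 128 falling junctions with a tested host gene, 67 lay in genes that fell too and none in a gene that rose. Of 108 rising ones, 30 lay in genes that rose, 6 in genes that fell and 72 in genes that did not pass. Over all genes tested, the background was 1.93% risen and 2.01% fallen. Junctions of the same gene are counted separately here and come from the same libraries as the gene counts. The like share among called junctions of all lengths was not counted.

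**Figure D4:**
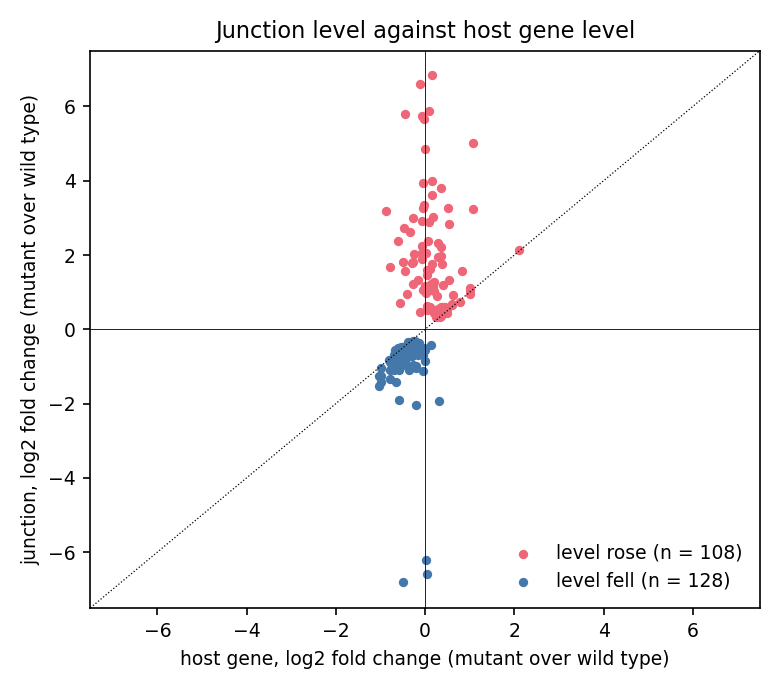
Log2 fold change (mutant over wild type) of each called short-intron junction (y axis) against that of its host gene (x axis), red for rises (n = 108) and blue for falls (n = 128); the dotted line marks equal change. Falls mostly lie along the line, while many rises stand far above it at a gene change near 0.

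Several genes carried more than 1 called short intron; the examples were picked after their values were seen. Of 186 host genes with a called level, 38 held at least 2. In 22 of them all called junctions fell, in 13 all rose, and in 3 they went both ways. TIMELESS, a protein of the replication fork, had 5 of 6 short introns fall, with log2 changes of -0.79 to -0.56, and its gene fell by 0.66 (adjusted p = 0.0468 by edgeR). RABEP2, an effector of Rab GTPases, had all 3 fall, with log2 changes of -1.42 to -1.05. CD37, a tetraspanin of B cells, had 2 fall (-0.63 and -0.73), and its gene fell by 0.59 (adjusted p = 0.022 by edgeR). In RHOT2, which acts in mitochondrial transport, 3 of 14 rose.

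In genes called both ways the junctions differed within the gene. DDX39A had 2 annotated introns fall, by 0.58 and 0.62 on the log2 scale, as its gene did by 0.41 (adjusted p = 0.0463 by edgeR), while the intron with guanine described above rose by 0.94. OSGEP had 2 rise, by 0.56 and 0.40, while the intron with the printed thymine donor fell by 1.94. KIF22 had 1 annotated intron fall by 0.50 while its new donor rose by 2.39.

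Host genes of the 32 used-more introns were tested in 30 cases. The gene rose in 4 (IL17RB, WBP1 and the BRD1 pair) and fell in 6 (POLB, TOM1, PPIG, DENND1A, DNAJC13 and DDX39A). POLB fell by 0.89 (adjusted p = 0.00363 by edgeR), PPIG by 0.79 and TOM1 by 0.76 (both adjusted p = 0.00441 by edgeR), and IL17RB rose by 0.53 (adjusted p = 0.0263 by edgeR). Over the host genes of all named short introns, 3 of 46 rose and 9 fell, beside 1.93% and 2.01% of all genes tested. This count is a description, because some of the 46 were named for a changed junction level, which moves with the gene. Without JVM3 the total of 12 dropped to 4.

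By function, the gene groups of the hosts showed few calls, to be read against the background of 2.9% of all junctions that rose and 3.26% that fell. Cytosolic ribosomal protein genes held 50 members in 21 genes and 13.6% of the members' reads, with 1 use call (RPL4) and 1 level each way. Splicing and RNA-binding genes held 143, of which 3 rose (2.1%) and 8 fell (5.59%) in level. HNRNPA3 held 4 of these falls and DDX39A 2, and both genes fell (log2 change -0.48 and -0.41, adjusted p = 0.015 and 0.0463 by edgeR). The remaining falls lay in HNRNPA2B1 and U2AF2, so the share counts several junctions of the same gene. Zinc finger genes held 97, of which 3 rose (3.09%). Mitochondrial ribosomal genes held 35 and proteasome genes 18, with at most 1 call in a direction each.

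Of 25 genes that encode U1 proteins and other splicing factors, edgeR called 0, with 5 at an unadjusted p under 0.05 and 1 called by DESeq2. SF1, SF3B1, U2AF1 and U2AF2 of this list act at the branch point or the acceptor, not at the donor. The median log2 change of the 25 was -0.08, beside -0.01 over all genes. The largest difference was in SF3B1, a U2 protein often mutated in this leukaemia, at 486 ± 51.4 CPM in mutant and 634 ± 93.1 CPM in wild-type cells (SD, n = 3 lines; log2 change -0.36, adjusted p = 0.0713 by edgeR). SNRNP70, the U1 70-kilodalton protein, stood at 177 ± 29.9 and 156 ± 24.7 CPM (log2 change 0.20, adjusted p = 0.185 by edgeR).

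The 405 junctions inside exons had features of their own. Their length was a multiple of 3 in 257 (63.5%), against 32.6% of annotated short introns. Inside coding sequence this held for 159 of 181, and elsewhere for 96 of 222. A direct repeat of at least 7 bases stood at both ends of 249 of the 403 that could be read (61.8%), against 14 of 1276 annotated short introns. On the strand of the gene 163 of 237 began with GT and ended with AG, and 50 began with GC and ended with AG, while annotated short introns were GT to AG in 98.7%.

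**Figure D5:**
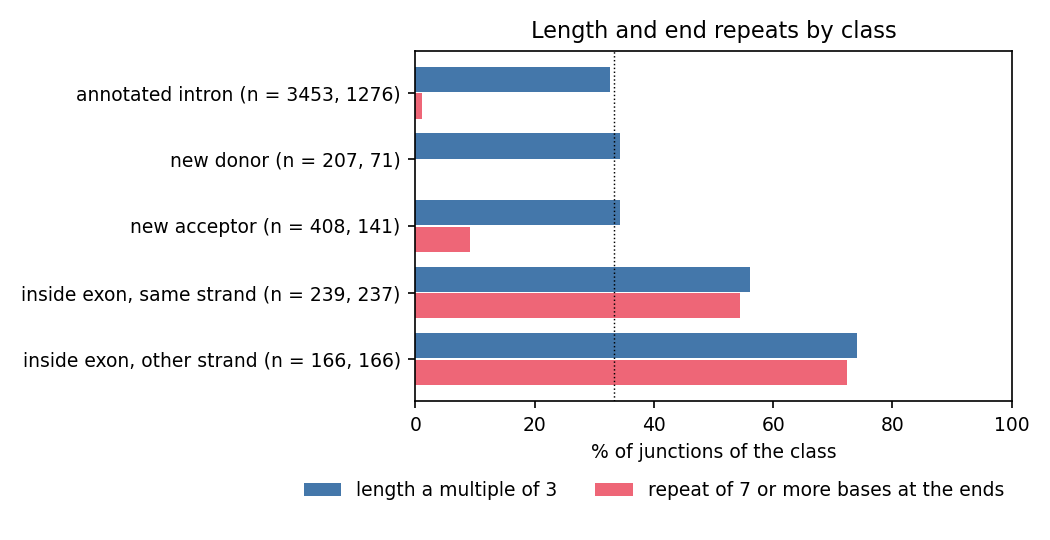
Share of junctions (x axis, %) whose length is a multiple of 3 (blue) and whose ends carry a direct repeat of at least 7 bases (red), by class (y axis, with the number of junctions and the number with readable sequence); the dotted line marks 1 in 3. New donors have no such repeat, while 72.3% of junctions inside exons on the other strand do.

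Some of the deepest junctions inside exons, chosen after their values were seen, are printed with 10 bases on either side, on the strand of the junction. Capitals mark the repeat found at both of its ends.
RPL29, 48 bases: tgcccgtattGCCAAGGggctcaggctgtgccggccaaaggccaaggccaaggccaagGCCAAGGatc
EEF2, 66 bases, other strand: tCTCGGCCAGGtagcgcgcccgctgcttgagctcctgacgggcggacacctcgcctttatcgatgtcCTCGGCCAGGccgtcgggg
RPL14, 48 bases, other strand: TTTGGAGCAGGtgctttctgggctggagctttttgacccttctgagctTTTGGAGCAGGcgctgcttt
ACTB, 30 bases, other strand: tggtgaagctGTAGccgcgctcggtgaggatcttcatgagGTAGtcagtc
The RPL29 junction (chr3:52027860-52027909), in a ribosomal protein gene, had 2139 mutant and 2009 wild-type reads in JVM3, 2172 and 2300 in HG3, and 1680 and 1972 in MEC1. EEF2, translation elongation factor 2, had 744 and 722, 1532 and 1311, and 1257 and 1300 (chr19:3977981-3978048). In none of the 4 did the level pass edgeR's test (adjusted p = 0.311 to 0.98). Among the 239 on the gene's strand, 5 levels rose (2.09%) and 3 fell (1.26%), beside backgrounds of 2.9% and 3.26%.

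Single columns were empty for some deep junctions. Among 2222 short junctions with at least 100 reads in some column, 63 (2.84%) had 0 in another, against 524 of 37254 longer ones (1.41%). Inside exons this held for 35 of 84 (41.7%) and at new acceptors for 12 of 27 (44.4%), but for 9 of 2066 annotated short introns (0.436%). Empty columns were spread over both forms of U1, 91 in mutant and 97 in wild-type columns, and none of the 63 was empty in exactly the 3 columns of 1 form. CD74, the invariant chain of MHC class II, had 1662 mutant and 0 wild-type reads in JVM3, 1757 and 0 in HG3, and 1627 and 2067 in MEC1 on a junction inside an exon (chr5:149781336-149781402). EEF1A1 had 5380 and 4810, 0 and 7702, and 4131 and 0 at a new acceptor (chr6:74227965-74228077). In each gene, columns with over 1000 reads stood beside empty ones, in both forms of U1 for EEF1A1.

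At the edges of the rule the members were set beside their neighbours, without a test. The 57 junctions with a span of 119 had a median of 218 reads, with 24624 mutant and 22127 wild-type reads in all, and the 66 with a span of 120, left out, had a median of 312, with 35722 and 31234. The 56 with exactly 20 reads held 606 mutant and 514 wild-type reads, and the 59 short ones with 19 held 564 and 557.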

How the data were processed

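The aligner STAR 2.5.4b, the counter HTSeq 0.9.1 and the build hg19 are named, per the submitters' processing notes. The authors deposited raw counts per gene for 12 libraries (29880079 to 39716818 counts) and raw counts per junction in 6 columns pooled by line and U1 status; no label or header used here says how junctions were extracted. Multi-mapped reads (29.02% to 34.92% of entries), reads outside features (17.72% to 24.93%) and ambiguous reads (0.9% to 1.06%) are not in the gene counts. Coordinates are hg19 as deposited. Genes, classes and sequences come from GENCODE release 29 transcripts on another build, reached by matching intron spacing on the same chromosome. This placed 97.97% of stranded junctions, while a control run that matched them against another chromosome placed 0. No coordinate was converted.

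Tests used edgeR 4.0.16 (diffSpliceDGE for use, quasi-likelihood for levels, TMM) in R 4.3.3, with the line as a block and gene replicates summed, and Benjamini-Hochberg adjustment over all features. The SE of a log2 change is over the 3 lines. Replicates are technical, so p-values rest on the spread between lines. Alternatives were limma 3.58.1, DESeq2, other minimums, bounds and groupings, and each line or library left out. On data simulated for 35857 junctions with a fixed spread between columns, adjusted p alone recovered 49.0% of 2-fold and 94.0% of 4-fold changes planted in acceptor use. Changes were planted only in junctions that averaged at least 20 reads a column and whose share was not very small. Recovery at shallower junctions or at those of very low use was not tested. Named were the 12 largest gains and losses called, the 5 deepest, the 4 largest rises and falls alone at an acceptor, and the 6 deepest in mutant columns only. Members and lists were chosen with earlier results of these data known.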

Additional observations from a re-analysis of the deposited data

Results flagged for a closer look

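In 11 host genes of the short introns named above, both mutant libraries lay above both wild-type libraries in 1 line and below them in another. The difference between lines was not tested, and the spread within a line is between technical replicates. The log2 ratios were 0.48 in MEC1 and -0.23 in JVM3 for CREBBP, 0.62 in HG3 and -0.11 in JVM3 for TREML2, and 0.21 in HG3 and -0.36 in MEC1 for PTCD2. FGD2 had 0.17 in HG3 and -0.23 in MEC1, EEF1A1 0.10 and -0.36, RPL4 0.16 and -0.16, EEF1A1P5 0.27 and -0.36, and RPS18 0.05 and -0.35 in the same lines. ACTB had 0.08 in JVM3 and -0.28 in HG3, DPY30 0.17 and -0.17 in those lines, and MRPL32 0.07 in JVM3 and -0.17 in MEC1.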

How the results depend on the processing

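Limits: the junction columns are pooled, 3 lines carry each test, and most gains rest on few reads. The count of short introns used more (32) kept within 1.5 times of its value with at least 50 reads, no minimum, a bound of 10 points or a span under 100. It was 14 with limma on log ratios (all 14 among the 32), 9 when junctions were grouped by donor (0 shared), and 16 to 24 with a line left out. Of the 12 largest gains, those of IL17RB, TOM1, ALKBH6, ACAD10 and the second BRD1 intron did not pass with limma (adjusted p = 0.0679 to 0.189). Among the other gains, those of MEN1, DDX39A, PIEZO1 and PPIG were some that did not either (0.0506 to 0.137, by limma). The count used less (5) was 2 with limma (0 shared), 1 at 10 points, 0 by donor (diffSpliceDGE), and 2 to 5 with a line left out. Levels that rose (113) numbered 23 with DESeq2, 69 at a span under 100, where fewer members were counted, and 56 to 107 with a line left out. Levels that fell (132) numbered 36 with DESeq2 and 71 to 122 with a line left out. Causes of the other shifts were not tested. The difference in share stayed within the spread of the lines under every alternative run. Host genes called (12) numbered 4 to 8 with a line left out and 11 to 13 with a library left out. Factor genes called (0) numbered 1 with DESeq2, 1 with no filter, and 0 with a line or a library left out. With 12 unsummed libraries and no replicate block, 25 host and 13 factor genes passed, and with the replicate block 25 and 12; the spread is then that of technical replicates. Deviations of same-numbered replicates had correlations of 0.048 (JVM3), 0.132 (HG3) and 0.254 (MEC1), so the numbers were not taken as pairs. No called use or level among the named introns changed sign under these settings. Without MEC1, the uncalled levels of RPS18 and the 3 EEF1A1 introns went from between -0.12 and -0.07 to between 0.03 and 0.08.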
